A study of Mus musculus with 12 samples.

Results

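The serum amyloid A and orosomucoid genes are the 7 rows of the count table named Saa1, Saa2, Saa3, Saa4, Orm1, Orm2 and Orm3, out of 54532 genes. They were chosen by name, with their values in these libraries already known. Their levels and differences are therefore given as a description, and no test of them is used as support. Liver and subcutaneous fat were taken from male mice 16 weeks after a tail vein injection, given at 10 weeks of age, of AAV8 with the thyroxine-binding globulin (TBG) promoter, which is active in hepatocytes. The vector carried either no HKDC1 (null) or full-length human HKDC1 (hHKDC1 OE), and all mice received a low-fat diet after the injection. Each tissue and vector had 3 libraries, 12 in all. The labels describe replicates 2 and 3 of hHKDC1 OE in each tissue as knockouts, although their titles carry FL (full-length) and their treatment says overexpression. They were left with hHKDC1 OE here. The labels do not tie a liver library to a fat library of the same mouse.

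Serum amyloid A proteins are small apolipoproteins that travel on high-density lipoprotein. In the mouse, Saa1 and Saa2 are made by hepatocytes during an acute phase response, Saa3 is known from macrophages and fat, and Saa4 is made constitutively by the liver. The orosomucoid genes encode alpha-1-acid glycoprotein, an abundant plasma lipocalin that binds small lipophilic molecules. Cytokines of the Il6 family act through the receptor subunits Il6ra and Il6st on Stat3, Il1b and Tnf act through NF-kB and C/EBP factors, and glucocorticoids act beside both on these genes in the liver.

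Each family lies in 1 cluster of GRCm38. On chromosome 7, Saa3 spans 46711998 to 46715700, Saa4 46727998 to 46732603 and Saa1 46740497 to 46742980, all on the minus strand, and Saa2 spans 46751790 to 46754313 on the plus strand. On chromosome 4, Orm1 spans 63344560 to 63348163, Orm3 63356162 to 63359511 and Orm2 63362449 to 63365878, all on the plus strand. The members are copies of each other within each family, to unequal degrees. The coding sequences of Saa1 and Saa2 were 95.1% identical, Saa3 was 75.9% identical to Saa1, and Saa4 was 63.5% to 65.0% identical to the other 3. Orm1 and Orm2 were 89.9% identical, Orm1 and Orm3 86.0%, and Orm2 and Orm3 87.9%. In the GENCODE transcripts, 7.0% of the 100-base stretches of the Orm1 mRNA occurred unchanged in Orm2, and the same share of Orm2 in Orm1. The mRNAs of the other 5 members shared no such stretch with any gene. The values of Orm1 and Orm2 are uncertain to the extent of their shared stretches.

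The promoters are shown for the members the results turn on, the near-identical Saa1 and Saa2, Saa3 in the same cluster, and the copies Orm2 and Orm3, whose levels lay on opposite sides of the null range in fat. Of the 7 members, 6 had a promoter in the RefSeq table of GRCm38.p6, without Orm1. The 250 bases before the RefSeq start of 5 of them are printed below from 5′ to 3′ on the strand of the gene. Capitals mark each match to an NF-kB motif (GGGNNNNNCC), a C/EBP motif (TTNNGNAA), a STAT motif (TTCNNNGAA) or a glucocorticoid receptor motif (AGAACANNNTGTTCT), searched on both strands, or to a TATA box (TATAAA), searched on the gene's strand.
Saa1 (chr7:46742981-46743230, minus strand): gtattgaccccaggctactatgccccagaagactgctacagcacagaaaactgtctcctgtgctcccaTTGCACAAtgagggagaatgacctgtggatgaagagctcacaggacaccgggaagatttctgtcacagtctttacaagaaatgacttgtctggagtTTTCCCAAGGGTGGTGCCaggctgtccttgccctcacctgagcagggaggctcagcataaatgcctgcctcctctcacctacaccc
Saa2 (chr7:46751583-46751832, plus strand): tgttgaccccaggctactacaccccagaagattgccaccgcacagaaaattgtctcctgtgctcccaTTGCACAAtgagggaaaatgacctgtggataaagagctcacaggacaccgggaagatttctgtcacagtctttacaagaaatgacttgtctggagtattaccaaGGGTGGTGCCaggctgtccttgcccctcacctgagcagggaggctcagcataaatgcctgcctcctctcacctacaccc
Saa3 (chr7:46715677-46715926, minus strand): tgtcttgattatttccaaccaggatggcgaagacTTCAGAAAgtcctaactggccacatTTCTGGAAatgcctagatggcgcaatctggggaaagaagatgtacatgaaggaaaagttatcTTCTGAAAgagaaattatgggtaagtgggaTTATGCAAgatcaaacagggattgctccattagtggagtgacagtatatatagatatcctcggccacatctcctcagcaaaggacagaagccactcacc
Orm2 (chr4:63362199-63362448, plus strand): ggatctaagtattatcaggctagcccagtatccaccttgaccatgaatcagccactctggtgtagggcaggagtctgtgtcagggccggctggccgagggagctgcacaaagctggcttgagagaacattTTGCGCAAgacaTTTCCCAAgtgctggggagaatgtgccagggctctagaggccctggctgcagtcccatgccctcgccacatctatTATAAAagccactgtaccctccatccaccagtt
Orm3 (chr4:63355908-63356157, plus strand): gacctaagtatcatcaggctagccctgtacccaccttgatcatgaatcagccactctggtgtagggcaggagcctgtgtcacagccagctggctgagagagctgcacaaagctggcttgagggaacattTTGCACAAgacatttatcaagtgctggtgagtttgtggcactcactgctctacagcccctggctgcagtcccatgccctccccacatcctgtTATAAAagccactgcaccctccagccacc

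The promoters of Saa1 and Saa2 were 94.8% identical, while Saa3 matched Saa1 at 48.2%, and Orm2 and Orm3 were 85.5% identical. Saa1 and Saa2 each held 1 NF-kB match, which ended 69 bases before the start in Saa1 and 70 bases before it in Saa2. In Saa1 a C/EBP match adjoined the NF-kB match directly, and a C/EBP match farther upstream was found in both genes. Saa3 held 4 C/EBP matches and no match to the NF-kB motif. Saa4 held 1 NF-kB and 2 C/EBP matches. Orm2 and Orm3 each held a TATA box and at least 1 C/EBP match. In Orm2 one C/EBP match reads the same on both strands, and no other matches overlapped. None of the 6 windows held the STAT or the glucocorticoid receptor motif as written. Of 32851 mouse promoter windows of the same length, 36.8% held the C/EBP motif, 45.8% the NF-kB motif, 7.02% the STAT motif, 7.59% the TATA box and 0.00913% the glucocorticoid receptor motif. The matches are a description of these letters and were not tested as binding sites.

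The libraries held 15496019 to 19954971 counts on genes. The summed level of 10 hepatocyte markers was 122001 to 126205 normalised CPM (counts scaled to a common library total, with TMM factors within the tissue) in null livers and 75435 to 100143 in hHKDC1 OE livers, without overlap. Of these markers 8 were lower and 2 higher in hHKDC1 OE liver (median log2 fold change -0.25), and their part in the results was not tested. The summed level of 10 adipocyte markers was 23172 to 34154 in the fat libraries. The table counts mouse genes, and mouse Hkdc1 had 0 to 8 counts in every library. Human HKDC1 was not analysed here, so the vector could not be checked from these counts. Nothing in the labels says more of the replicates than that they are separate samples, so the errors measure the spread between these libraries.

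In liver, 6 of the 7 members were higher in every hHKDC1 OE library than in every null library. The genes were Saa1, Saa2, Saa3, Orm1, Orm2 and Orm3, and Saa4 was the exception. Among 13351 genes tested in liver, 6.31% had all hHKDC1 OE libraries above all null libraries. Since the members were chosen with these values known, nothing is read from that difference. Ranked by log2 fold change among the 13351 genes, Saa2 was in place 1, Saa1 in place 2, Orm2 in place 3, Saa3 in place 9, Orm3 in place 28 and Orm1 in place 39.

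**Figure D1:**
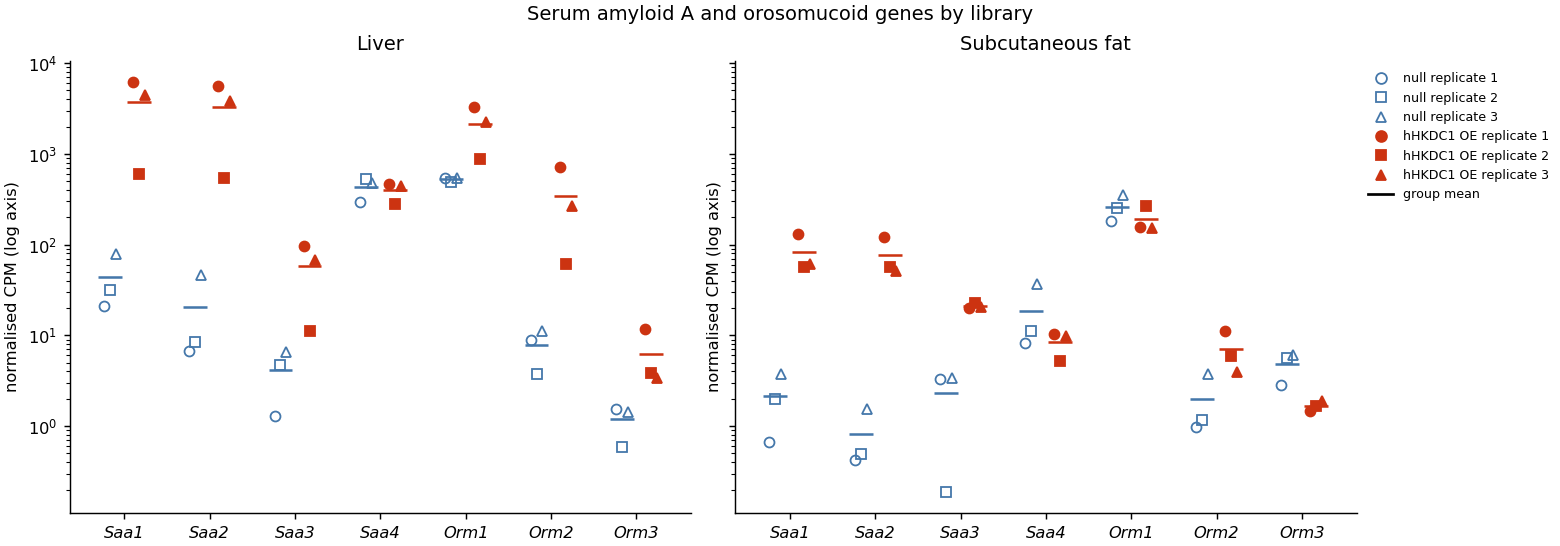
Normalised CPM on a log axis of the 7 genes in each of the 12 libraries, with liver on the left and subcutaneous fat on the right. Open blue symbols are null, filled red symbols are hHKDC1 OE, the symbol shape gives the replicate and lines are group means. In liver, Saa1, Saa2, Saa3, Orm1, Orm2 and Orm3 do not overlap between vectors and hHKDC1 OE replicate 2 is below replicate 1 for all 7 genes, while in fat Orm1 and Saa4 overlap and Orm3 is lower in hHKDC1 OE.

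Saa1, a circulating acute phase apolipoprotein, was at 21.2, 31.9 and 79.2 normalised CPM in null livers 1 to 3 and at 6245, 603 and 4410.2 in hHKDC1 OE livers 1 to 3. The lowest hHKDC1 OE liver was 7.62-fold above the highest null liver, and the hHKDC1 OE livers differed among themselves by 10.4-fold. The log2 fold change was 6.41 (standard error 0.90), and 7.14 without null replicate 3. Saa2, its near-identical neighbour, was at 6.73, 8.53 and 46.7 CPM in null livers and at 5592, 542 and 3784 CPM in hHKDC1 OE livers. The groups were again apart, with replicate 2 the lowest hHKDC1 OE liver and replicate 3 the highest null liver. Its log2 fold change was 7.32 (standard error 1.10), the largest of the 7 genes, from a mean of 20.7 ± 22.6 CPM to 3306 ± 2559 CPM (SD, n = 3). It was 8.76 without null replicate 3 and 6.71 without hHKDC1 OE replicate 1.

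Saa3, the member known from macrophages and fat, was far less abundant in liver. It was at 1.30, 4.69 and 6.51 CPM in null livers and at 96.4, 11.1 and 66.9 CPM in hHKDC1 OE livers. The groups did not overlap, but hHKDC1 OE replicate 2 was only 1.70-fold above the highest null liver. The log2 fold change of Saa3 was 3.80 (standard error 0.76). In the same livers the summed level of 10 macrophage markers was 139 to 232 CPM in null and 212 to 406 CPM in hHKDC1 OE, and 8 of the 10 were higher (median log2 fold change 0.81). The sum of 5 Kupffer cell markers was 81.1 to 150 CPM in null and 148 to 320.3 CPM in hHKDC1 OE. All 5 were higher in hHKDC1 OE liver (median log2 fold change 0.94), and all were above 0 in both groups. Their part in the level of Saa3 was not tested. In bulk tissue, more cells of a type and more RNA per cell cannot be told apart.

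Saa4, the constitutive member, lies between Saa3 and Saa1 on the chromosome and did not differ in the same way. It was at 298, 524 and 479 CPM in null livers and at 464, 280.1 and 447 CPM in hHKDC1 OE livers, so the groups overlapped. Its log2 fold change was -0.13 (standard error 0.26), close to the median of 0.01 over all genes tested in liver. The value was 0.04 without null replicate 2 and 0.07 without hHKDC1 OE replicate 2, so its sign is not settled.

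Orm1, the most abundant orosomucoid gene, was at 547, 491 and 543 CPM in null livers. It was at 3262, 867 and 2267 CPM in hHKDC1 OE livers. The null livers agreed within 1.11-fold, and the lowest hHKDC1 OE liver was 1.59-fold above the highest of them, for a log2 fold change of 2.02 (standard error 0.40). Orm2 was at 8.83, 3.78 and 11.1 CPM in null livers and at 714, 61.2 and 264 CPM in hHKDC1 OE livers. The groups were apart by 5.51-fold, and the log2 fold change was 5.45 (standard error 0.84), or 4.36 without hHKDC1 OE replicate 1. Orm3, the scarcest member, had 25, 9 and 23 counts in null livers and 189, 73 and 63 counts in hHKDC1 OE livers. Its groups did not overlap, and its log2 fold change was 2.39 (standard error 0.56), which was 1.6 without hHKDC1 OE replicate 1.

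No gene passed an adjusted p of 0.05 in liver in the quasi-likelihood fit of edgeR after Benjamini-Hochberg correction over 13351 genes. At an unadjusted p under 0.05 the fit held 927 genes (6.94%), and 6 of the 7 members were among them. DESeq2 called 94 genes (0.736%), with Saa1, Saa2, Saa3, Orm1, Orm2 and Orm3 among them. With the replicate number as a block, 17 genes were called, Saa1, Saa2 and Orm2 among them. Without hHKDC1 OE replicate 2, the liver in which Saa1, Saa2, Saa3, Orm1 and Orm2 were lowest within their group, 146 genes were called and these 5 were among them.

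The order of the livers was the same for Saa1, Saa2 and Saa3, from hHKDC1 OE replicate 1 through replicates 3 and 2 to null replicates 3, 2 and 1. For Orm1 and Orm2 the hHKDC1 OE livers had that order too. For Orm3 replicates 2 and 3 changed places, at 3.88 and 3.36 CPM. Together the 7 genes took 0.0836% to 0.116% of the counts of a null liver. They took 1.53%, 0.257% and 1.18% of the counts of hHKDC1 OE livers 1 to 3. Replicate 1, the hHKDC1 OE liver that the labels do not call a knockout, was thus the highest, and replicate 3, which they do call one, was close to it.

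Within the families the make-up also differed. Saa1 and Saa2 counts stood in a ratio of 3.15, 3.74 and 1.70 in null livers and of 1.12, 1.11 and 1.17 in hHKDC1 OE livers. Saa2 was therefore 21.1% to 37.1% of the 2 genes' counts in null livers and 46.2% to 47.3% in hHKDC1 OE livers. The Saa1 levels of these hHKDC1 OE livers differed by 10.4-fold. The Wilson 95% interval of the share was 47.0% to 47.5% in replicate 1, 46.7% to 48.0% in replicate 2 and 45.9% to 46.4% in replicate 3, so that replicate 3 lay below the other two by more than counting error, which is all that these intervals cover. In null liver replicate 3, which had the highest null level of both genes, the share was 37.1% (interval 35.0% to 39.2%), between the other null livers and the hHKDC1 OE livers. Saa4 made up 78.3% to 92.1% of serum amyloid A counts in null livers and 3.74%, 19.5% and 5.14% in hHKDC1 OE livers 1 to 3.

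Orm2 was 1.59%, 0.763% and 2.00% of orosomucoid counts in null livers 1 to 3 and 17.9%, 6.56% and 10.4% in hHKDC1 OE livers 1 to 3. The share was highest in the liver with the most Orm1 and Orm2 and lowest, within hHKDC1 OE, in replicate 2. Orm1 still held 81.8% to 93.0% of orosomucoid counts in hHKDC1 OE livers, and Orm3 held 0.133% to 0.416% there, against 0.118% to 0.277% in null livers. Sharing of reads between Orm1 and Orm2 would touch these shares, and its size was not tested.

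**Figure D2:**
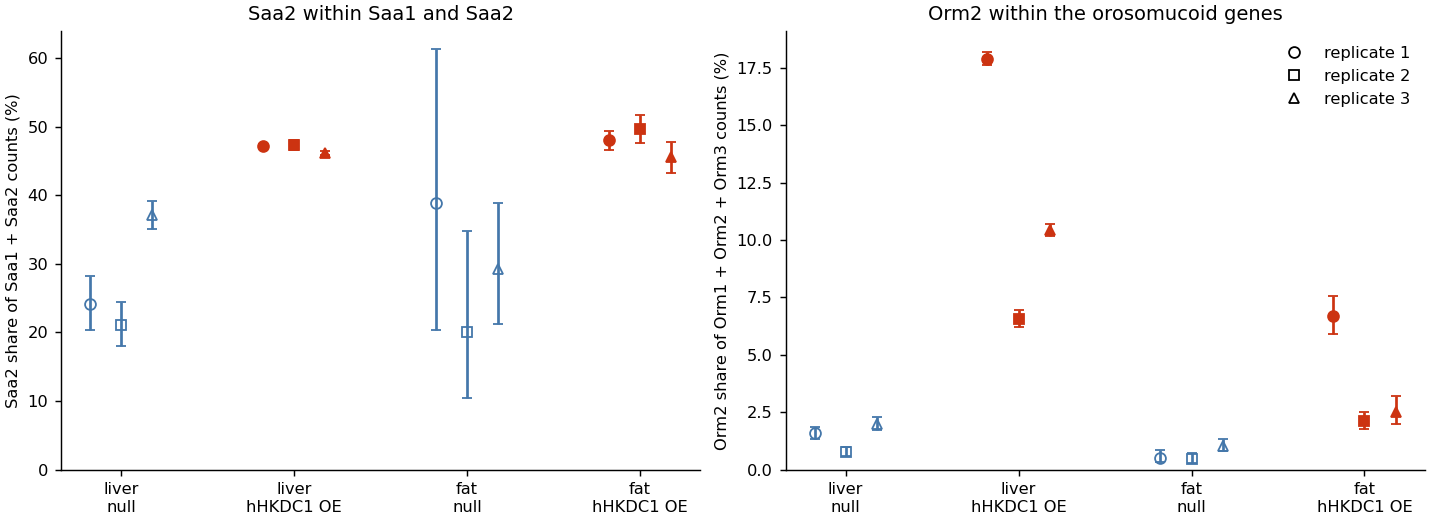
Share of Saa2 in the counts of Saa1 and Saa2 (left) and of Orm2 in the counts of the 3 orosomucoid genes (right), in percent, for each library, with null in open blue and hHKDC1 OE in filled red symbols. Bars are Wilson 95% intervals of counting error. The Saa2 share lies between 46.2% and 47.3% in hHKDC1 OE livers and between 45.5% and 49.7% in hHKDC1 OE fat.

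Levels can be compared between genes only per length. The deposited FPKM (fragments scaled by gene length and library total) divide Saa1 by 2478 bases, Saa2 by 2518 and Saa3 by 2606, although their principal coding transcripts have 609, 652 and 555 bases. The lengths used for Saa4, Orm1, Orm2 and Orm3 are those of their transcripts. Divided by the length of the coding transcript instead, and with all fragments assigned to it, the null livers had Orm1 first at 928 ± 66.1 FPKM (SD, n = 3) and Saa4 second at 281 ± 73.0, each apart from the next. Saa1 followed at 97.9 ± 66.8, Saa2 at 42.7 ± 46.1, Orm2 at 13.9 ± 6.53 and Saa3 at 10.1 ± 6.31, and each of these overlapped its neighbour in range. Orm3 was last at 2.10 ± 0.94. In hHKDC1 OE livers Saa1 came first at 8294 ± 6418, then Saa2 at 6826 ± 5333 and Orm1 at 3695 ± 2130, with overlapping ranges. Orm2 at 603 ± 587, Saa4 at 254 ± 68.4 and Saa3 at 141 ± 106 followed, with Orm3 last at 10.9 ± 8.21. On the deposited lengths Orm1 would stay first in hHKDC1 OE livers, so the top of that order depends on the length used.

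In subcutaneous fat, 4 members were higher in every hHKDC1 OE library than in every null library, namely Saa1, Saa2, Saa3 and Orm2. Among 16380 genes tested in fat, 12.5% had this pattern. Orm3 was lower in every hHKDC1 OE library, as were 10.2% of all genes tested. Orm1 and Saa4 overlapped between vectors. The comparison asks what differs in a tissue where the promoter of the vector is not known to be active.

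Saa1 was at 0.67, 1.98 and 3.74 CPM in null fat and at 129.9, 56.6 and 61.7 CPM in hHKDC1 OE fat. The lowest hHKDC1 OE library was 15.1-fold above the highest null library, and the log2 fold change was 5.26 (standard error 0.65), or 5.93 without null replicate 3. Saa2 had 7, 8 and 29 counts in null fat and 2533, 1144 and 839 counts in hHKDC1 OE fat. The gap between the groups was 33.2-fold, the widest of the 7 genes in either tissue, and the log2 fold change was 6.49 (standard error 0.62), or 7.31 without null replicate 3. Both genes were highest in hHKDC1 OE replicate 1. Their mean levels in hHKDC1 OE fat, 82.7 ± 41.0 and 75.8 ± 38.3 CPM (SD, n = 3), were far below those in hHKDC1 OE liver, a comparison across separately scaled tissues.

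Saa3 was at 3.28, 0.19 and 3.42 CPM in null fat, from 54, 3 and 64 counts. It had 422, 462 and 336 counts in hHKDC1 OE fat, or 21.1 ± 1.35 CPM (SD, n = 3). The hHKDC1 OE libraries lay within 1.13-fold of each other, the closest agreement of any member in that group, and the log2 fold change was 3.19 (standard error 0.79). Null replicate 2, at 3 counts, set most of the spread of the null group.

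Orm2 was at 0.97, 1.18 and 3.80 CPM in null fat and at 11.2, 5.87 and 3.93 CPM in hHKDC1 OE fat. The groups were apart by only 1.04-fold, and the log2 fold change of 1.81 (standard error 0.65) was 2.67 without null replicate 3. Orm3 was at 2.86, 5.58 and 6.04 CPM in null fat and at 1.47, 1.66 and 1.91 CPM in hHKDC1 OE fat. These values rest on 31 to 113 counts, the groups did not overlap, and the log2 fold change was -1.52 (standard error 0.39).

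Orm1, which has far more counts in fat than its copies, was at 182, 251 and 354 CPM in null fat and at 155, 269 and 150.8 CPM in hHKDC1 OE fat. The groups overlapped, and the log2 fold change was -0.45 (standard error 0.32). Saa4 was at 8.15, 11.1 and 36.9 CPM in null fat and at 10.2, 5.18 and 9.78 CPM in hHKDC1 OE fat. Its groups overlapped too, and its log2 fold change of -1.16 (standard error 0.60) was -0.23 without null replicate 3. Per length of the coding transcript, Orm1 was first in null fat at 252 ± 87.0 FPKM (SD, n = 3), apart from Saa4 at 6.69 ± 5.79, and the other 5 members were at 0.95 to 4.63 with overlapping neighbours. In hHKDC1 OE fat Orm1 at 179 ± 71.6 overlapped Saa1 at 96.2 ± 45.1, which overlapped Saa2 at 82.5 ± 39.6. Saa3 followed at 27.2 ± 2.98, Orm2 at 6.43 ± 3.33, Saa4 at 2.84 ± 0.85 and Orm3 at 1.55 ± 0.21, each apart from the next.

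The Saa2 share of Saa1 and Saa2 counts was 45.5% to 49.7% in hHKDC1 OE fat. In null fat it was 20% to 38.9%, with Wilson 95% intervals as wide as 20.3% to 61.4% because the counts were few. The Orm2 share of orosomucoid counts was 0.456% to 1.04% in null fat and 2.12% to 6.69% in hHKDC1 OE fat. Orm1 held 92.4% to 97.9% of those counts in all 6 fat libraries.

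In fat, too, no gene passed an adjusted p of 0.05 after Benjamini-Hochberg correction over 16380 genes in the edgeR fit. The unadjusted p was under 0.05 for 2903 genes (17.7%), 5 of the 7 members among them. DESeq2 called 1446 genes (7.46%), with Saa1, Saa2, Saa3, Orm2 and Orm3 among them. Without hHKDC1 OE replicate 2, 3251 genes were called, Saa1, Saa2 and Saa3 among them. Scaling by library size alone moved the median log2 fold change of all genes in fat up by 0.15, and the sign of each member's value stayed the same.

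Fat libraries held hepatocyte transcripts, and the members were set beside them. The summed level of 10 hepatocyte markers was 3822, 4069 and 9861 CPM in null fat and 2937, 1822 and 2620 CPM in hHKDC1 OE fat. All 10 markers were lower with hHKDC1 OE (median log2 fold change -1.37). The sum was also lower in hHKDC1 OE livers than in null livers, so that counts per hepatocyte marker count differ between vectors through both terms. Per 1000 hepatocyte marker counts, Saa1 had 0.17 to 0.49 counts in null fat and 0.17 to 0.65 in null liver. It had 23.5 to 44.2 in hHKDC1 OE fat and 6.42 to 62.4 in hHKDC1 OE liver. Saa2 had 19.7 to 40.9 in hHKDC1 OE fat and 5.77 to 55.8 in hHKDC1 OE liver. For Saa1 and Saa2, each fat library lay within the range of the livers with the same vector on this sum. Saa4 had 2.13 to 3.74 in all 6 fat libraries and 2.36 to 5.93 in all 6 livers. These positions depend on Cyp2e1, a cytochrome P450 in the list, which was 7.50% to 8.86% of the marker counts in the livers but 21.4% to 34.4% with the null vector in fat and 29.6%, 59.3% and 56.6% of them in fat of hHKDC1 OE replicates 1 to 3. Without Cyp2e1, an alternative chosen after the data were seen, Saa1 had 54.3 to 76.2 and Saa2 45.4 to 75.3 counts per 1000 in hHKDC1 OE fat, against 6.94 to 68.2 and 6.23 to 61.1 in hHKDC1 OE liver. Replicate 2 of hHKDC1 OE fat then lay above every hHKDC1 OE liver for both genes. Saa4 was then at 4.95 to 8.60 in hHKDC1 OE fat and 3.22 to 6.50 in hHKDC1 OE liver, with 2 of 3 fat libraries above the liver range. Per count of Alb alone, the same numbers of hHKDC1 OE fat libraries lay above the liver range for Saa1, Saa2 and Saa4.

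With all 10 markers in the sum, the other members differed from the liver on this scale, though not in every library. Saa3 had 6.81 to 12.4 counts per 1000 hepatocyte marker counts in hHKDC1 OE fat and 0.12 to 0.96 in hHKDC1 OE liver. In null fat it had 0.046 to 0.86, with 1 of 3 libraries within the null liver range of 0.010 to 0.053. Orm1 had 35.9 to 61.8 in null fat and 4.02 to 4.43 in null liver, and 52.9 to 148 in hHKDC1 OE fat and 9.22 to 32.6 in hHKDC1 OE liver. Orm3 had 0.61 to 1.37 in null fat and 0.0048 to 0.012 in null liver, and 0.50 to 0.91 in hHKDC1 OE fat and 0.041 to 0.12 in hHKDC1 OE liver. The fat mean was 11.4-fold the liver mean for Orm1 with the null vector and 3.59-fold with hHKDC1 OE, and 95.3-fold and 10.6-fold for Orm3. Per count of Alb alone these ratios were 14.5 and 7.20 for Orm1 and 123 and 20.8 for Orm3. The Orm3 ranges of null and hHKDC1 OE fat overlapped on this scale with or without Cyp2e1, unlike its CPM. Orm2 was above the liver range in null fat, at 0.25 to 0.39 against 0.031 to 0.091, and within it in hHKDC1 OE fat, at 1.5 to 3.82 against 0.65 to 7.13. Without Cyp2e1, all 3 null fat libraries lay above the liver range for Saa3, and 1 of 3 hHKDC1 OE fat libraries did for Orm2. The part of hepatocyte RNA in the fat levels was not tested.

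**Figure D3:**
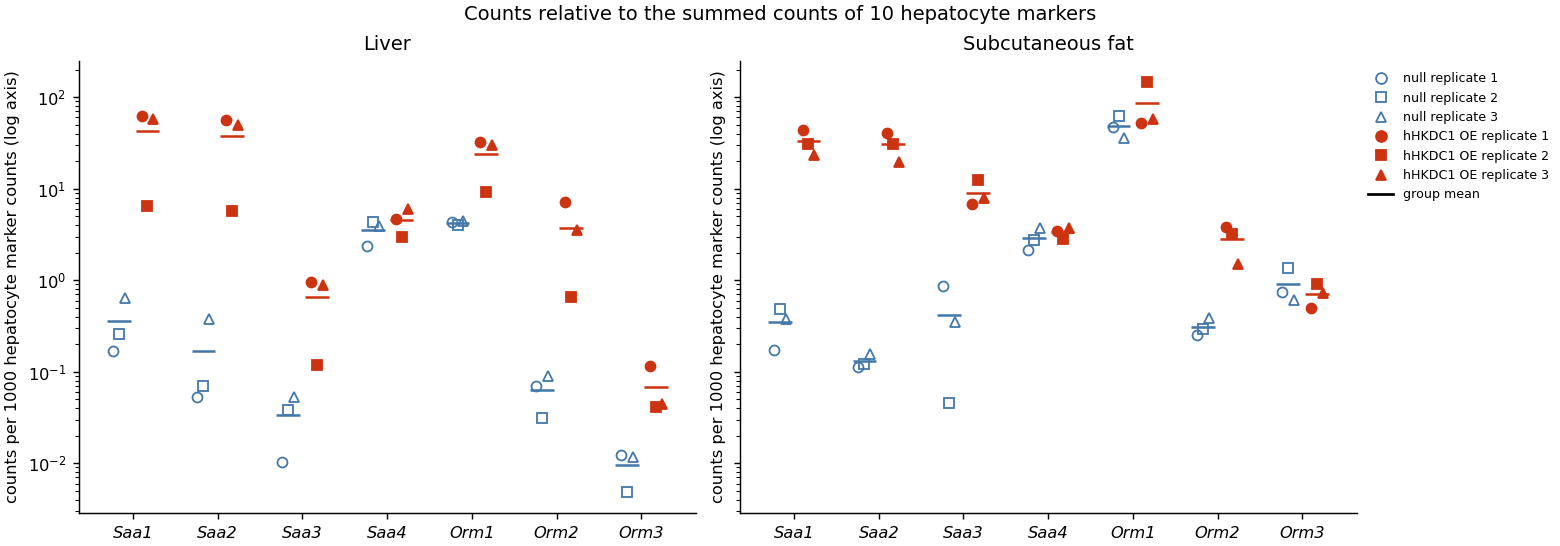
Counts of each of the 7 genes per 1000 summed counts of 10 hepatocyte markers, on a log axis, for each liver library (left) and fat library (right), with open blue symbols for null, filled red symbols for hHKDC1 OE and lines for group means. The sum includes Cyp2e1, whose share of it is higher in fat than in liver. Saa1 lies at 23.5 to 44.2 in hHKDC1 OE fat and 6.42 to 62.4 in hHKDC1 OE liver, while Orm1 and Orm3, and Saa3 with hHKDC1 OE, sit higher in fat.

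Markers of immune cells also differed in the fat libraries. The summed level of 10 macrophage markers was 330.3 to 707 CPM in null fat and 949 to 1540 CPM in hHKDC1 OE fat, and 9 of the 10 were higher (median log2 fold change 0.86). The sum of the 5 Kupffer cell markers was 5.02 to 14.2 CPM in null fat and 354, 27.4 and 235 CPM in hHKDC1 OE fat 1 to 3. Of the 5, 4 were higher (median log2 fold change 3.76), but not to a like degree. Marco, Timd4 and Cd5l were at 6.53, 4.66 and 3.76. Clec4f was at 0.01 (standard error 0.78) and Vsig4 at -0.45 (standard error 0.86). The sum of 10 T cell markers was 7.38 to 18.3 CPM in null fat and 729, 53.3 and 861 CPM in hHKDC1 OE fat 1 to 3. The sum of 10 B cell markers was 283 to 621 CPM in null fat and 2800, 915 and 2313 CPM in hHKDC1 OE fat 1 to 3. All 10 T cell and all 10 B cell markers were higher in every hHKDC1 OE library than in every null library, beside 12.5% of all genes tested. The macrophage, Kupffer, T cell, B cell and neutrophil sums were all lowest within hHKDC1 OE in replicate 2. Saa3 was highest in that library, at 22.6 CPM. The hHKDC1 OE fat libraries lay within 1.13-fold of each other for Saa3, so nothing is read from their order. Both Saa3 and the macrophage sum were higher in every hHKDC1 OE fat library than in every null one. Neutrophil markers summed to 5.64 to 12.5 CPM in null fat and 22.1 to 46.5 CPM in hHKDC1 OE fat, with Ly6g and Ngp at 0 counts in null fat. The part of these cells in the level of Saa3 or of the other members was not tested.

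The differences between vectors in the 2 tissues were set side by side in 1 fit over the 12 libraries. The log2 fold change in fat minus that in liver was -1.09 (standard error 1.12) for Saa1, -0.78 (standard error 1.31) for Saa2, -0.56 (standard error 1.14) for Saa3 and -0.96 (standard error 0.70) for Saa4. With errors of this size, these values do not show whether the 4 genes differed alike in the 2 tissues. The fat value minus the liver value was -2.40 (standard error 0.61) for Orm1, -3.58 (standard error 1.13) for Orm2 and -3.84 (standard error 0.77) for Orm3. Orm3 was the member whose libraries separated in opposite directions, higher in every hHKDC1 OE liver and lower in every hHKDC1 OE fat library. No gene of 17070 passed an adjusted p of 0.05 for this difference in the edgeR fit after Benjamini-Hochberg correction, 2163 (12.7%) had an unadjusted p under 0.05 and DESeq2 called 497.

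**Figure D4:**
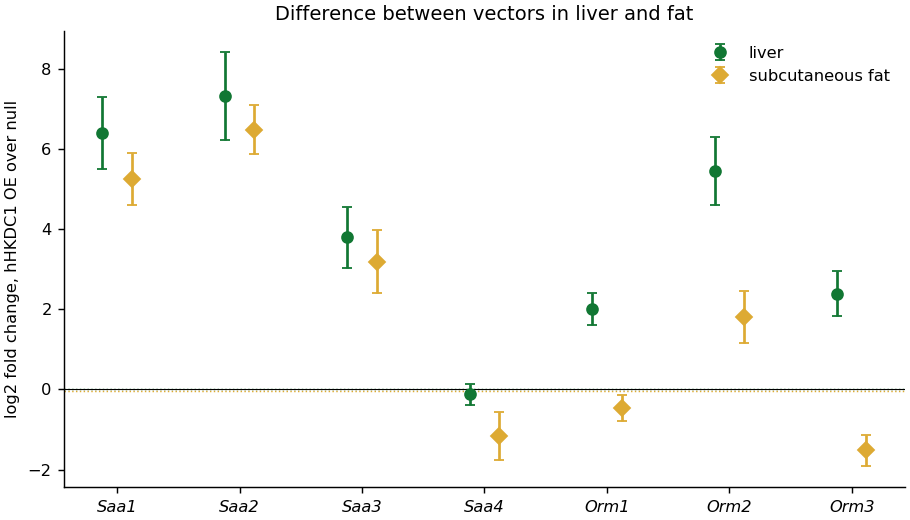
Log2 fold change of hHKDC1 OE over null for the 7 genes in liver (circles) and subcutaneous fat (diamonds), with bars of 1 standard error from edgeR and dotted lines at the median of all genes tested in each tissue. Saa1, Saa2, Saa3 and Orm2 are above 0 in both tissues, while Orm1 is at 2.02 in liver and -0.45 in fat and Orm3 at 2.39 and -1.52.

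Genes around the members were read from 8 lists of ligands, receptors, transcription factors, feedback genes, partners of the proteins and other acute phase and glucocorticoid response genes. Of 99 genes listed, 98 were in the table. In liver 88 were tested, with 44 higher and 44 lower, and the median log2 fold change was 0.01, as over all genes. In fat 89 were tested, with 35 higher and 54 lower, and the median was -0.19 beside -0.05 over all genes. By edgeR's adjusted p none passed in either tissue, and an unadjusted p was under 0.05 for 12 higher and 10 lower genes in liver and for 15 higher and 16 lower genes in fat, beside 6.94% and 17.7% of all genes tested. DESeq2 called 8 of the listed genes in liver and 18 in fat, beside 0.736% and 7.46% of all genes. The lists were written with earlier results of these libraries known.

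Of 10 cytokine ligands, 3 were tested in liver and 4 in fat. Il6, the founding ligand of its family, had 0 counts in all 12 libraries, which allows an expected count of up to 3 over all of them together (95% limit, counting error only). Il1b, the cytokine that acts through NF-kB, had 7, 4 and 9 counts in null livers and 24, 36 and 15 counts in hHKDC1 OE livers. The groups did not overlap, and its log2 fold change in liver was 1.72 (standard error 0.57). Il1b was highest in hHKDC1 OE replicate 2, the liver with the least Saa1 in that group, but these counts are few and their order was not tested. Tnf had 1 to 5 counts in every liver, and in fat it had 6, 0 and 3 counts with the null vector and 88, 7 and 45 with hHKDC1 OE. In fat Il1b had 5, 0 and 8 counts with the null vector and 26, 10 and 46 with hHKDC1 OE, too few for it to be tested there. Clcf1, a ligand of the Il6 family named here after its values were seen, was at 0.67, 2.42 and 2.67 CPM in null fat and at 26.2, 5.18 and 23.0 CPM in hHKDC1 OE fat. All hHKDC1 OE fat libraries lay above all null ones, as for 12.5% of all genes tested, and the log2 fold change there was 3.23 (standard error 0.74).

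Of 16 cytokine receptor and adaptor genes tested in liver, 7 were higher and 9 lower (median log2 fold change -0.04). Il6ra, the receptor subunit that binds Il6, was at 98.9, 112 and 109.7 CPM in null livers and at 77.0, 75.8 and 59.7 CPM in hHKDC1 OE livers. The groups did not overlap and the log2 fold change was -0.59 (standard error 0.15). Il6st, the shared signalling subunit, differed by -0.04 (standard error 0.18) in liver and -0.08 (standard error 0.17) in fat.

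Of 12 transcription factor genes, 6 were higher and 6 lower in liver, with log2 fold changes from -0.72 to 0.26. In fat 4 were higher and 8 lower, from -1.39 to 1.91, with 3 wholly above and 2 wholly below the null libraries, beside 12.5% and 10.2% of all genes tested. The liver values of Stat3 and Nfkb1 were 0.23 (standard error 0.17) and -0.0039 (standard error 0.15). Those of Cebpb and Cebpd in liver were -0.03 (standard error 0.20) and -0.42 (standard error 0.23). Every hHKDC1 OE fat library was below every null one for Cebpb, at -0.52 (standard error 0.18). Stat3 was at -0.0053 (standard error 0.15) in fat. In fat Cebpd was lower in every hHKDC1 OE library, at 62.7, 68.3 and 93.0 CPM with the null vector and 20.4, 38.4 and 27.0 CPM with hHKDC1 OE, and Nfkb1 was at 0.64 (standard error 0.22). Of 8 feedback genes, 6 were higher in liver and 7 in fat. Socs3, which limits signalling through Stat3, was at 1.67, 3.26 and 16.3 CPM in null livers and 11.9, 11.2 and 16.9 CPM in hHKDC1 OE livers. Null liver replicate 3, which also had the most Saa1 and Saa2 of its group, lay inside the hHKDC1 OE range. In fat the groups of Socs3 were apart, at 3.74 to 6.08 CPM and 6.31 to 23.1 CPM, and the log2 fold change was 1.86 (standard error 0.51). Nfkbia, Nfkbiz and Tnfaip3, which limit NF-kB or act on it, were at -0.32, 0.22 and -0.45 in liver and 0.08, 0.62 and 0.16 in fat as log2 fold changes.

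Of the receptors and partners of the proteins, 2 of 11 tested were higher and 9 lower in liver, and 2 of 10 were higher and 8 lower in fat. Scarb1, a receptor for high-density lipoprotein that binds serum amyloid A, was at 160 to 213 CPM in every liver, and the log2 fold change was -0.00030 (standard error 0.16). Tlr2, a pattern receptor, was at 0.30 (standard error 0.56) in liver and 1.15 (standard error 0.43) in fat. Fpr2, the formyl peptide receptor for serum amyloid A, had 3 to 24 counts in the livers and 0 to 21 in fat and was too low to be tested within either tissue.

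Of 23 other positive acute phase genes tested in liver, 20 were higher and 3 lower (median log2 fold change 0.51). In 5 of them all hHKDC1 OE livers lay above all null livers, beside 6.31% of all genes tested. Lcn2, a lipocalin that binds siderophores, was at 5.06, 4.36 and 21.2 CPM in null livers and 700.3, 48.6 and 358 CPM in hHKDC1 OE livers. It had the order of libraries of Orm2 within hHKDC1 OE, and a log2 fold change of 5.17 (standard error 0.97). Fgl1, a fibrinogen-like hepatokine, was at 92.2, 114 and 176 CPM in null livers and 1030.1, 179 and 850.0 CPM in hHKDC1 OE livers, so that replicate 2 was level with the highest null liver, and its log2 fold change was 2.43 (standard error 0.54). Hp, the haemoglobin scavenger haptoglobin, and Serpina3n, a protease inhibitor, overlapped between groups, with log2 fold changes of 1.31 (standard error 0.40) and 0.92 (standard error 0.31). Hamp, the iron hormone hepcidin, was one of the 3 that were lower, at -0.55 (standard error 0.45). In fat 13 of these 23 genes were higher and 10 lower, with a median of 0.14, and Lcn2 was at 1.43 to 2.43 CPM with the null vector and 6.45 to 16.7 CPM with hHKDC1 OE. Of 7 negative acute phase genes tested, whose products decline in plasma during the response, 6 were lower in liver (median -0.22) and 7 in fat (median -1.5), and this list shares Alb, Ttr and Ahsg with the hepatocyte markers.

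Most glucocorticoid response genes were lower. In liver 8 of 9 tested were lower (median log2 fold change -0.79), and in fat 9 of 9 (median -1.17). All hHKDC1 OE libraries lay below all null libraries for 5 of the 9 in liver, beside 6.18% of all genes tested, and for 6 of the 9 in fat, beside 10.2%. Fkbp5, a chaperone of the glucocorticoid receptor, was at 117, 165 and 168 CPM in null livers and 47.2, 103 and 35.7 CPM in hHKDC1 OE livers. The liver with the least Saa1 among the hHKDC1 OE livers, replicate 2, had the most Fkbp5 among them. In fat Fkbp5 was at 174, 287 and 320.3 CPM with the null vector and 70.5, 139.8 and 49.7 CPM with hHKDC1 OE. The clock gene Per1 differed by -0.39 (standard error 0.39) in liver and -0.82 (standard error 0.36) in fat.

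**Figure D5:**
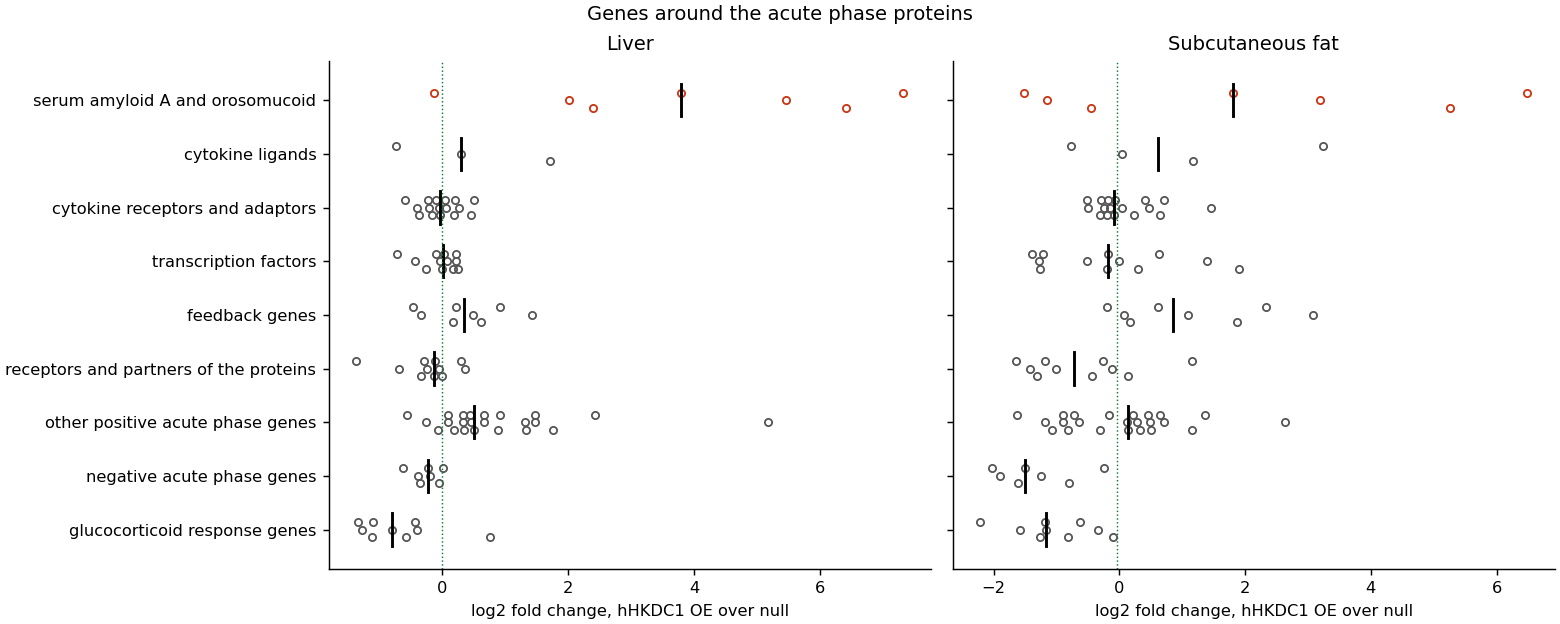
Log2 fold change of hHKDC1 OE over null for each tested gene of the 7 members (red) and of the 8 lists (grey) in liver (left) and subcutaneous fat (right), with black bars at the list medians and dotted lines at the median of all genes tested. The medians of the members are 3.80 in liver and 1.81 in fat, that of the other positive acute phase genes is 0.51 in liver, and those of the glucocorticoid response genes are -0.79 and -1.17.

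The genes whose levels ran most alike to the members were taken from the 6 libraries of each tissue. In liver, 9066 genes with a mean of at least 5 CPM were compared with the mean standardised log2 level of Saa1, Saa2, Orm1, Orm2 and Orm3. Among the highest Pearson correlations over 6 livers were 0.994 for Gm7072, 0.992 for Fahd1, 0.992 for Atp11a and 0.989 for Shank2. Atp11a was at 9.26, 8.40 and 10.4 CPM in null livers and 25.7, 16.9 and 23.4 CPM in hHKDC1 OE livers, and Gm7072, Fahd1 and Shank2 varied less than it between the vectors. In fat, 11741 genes were compared with Saa3, and the highest values were 0.989 for Tifab, 0.986 for Gm13736, 0.986 for Akt1, 0.982 for Gtf2h4 and 0.979 for P2ry6. Tifab was at 4.07, 2.42 and 4.87 CPM in null fat and 9.81, 9.92 and 11.4 CPM in hHKDC1 OE fat. With 6 points that fall into 2 groups and many genes compared, such values are a description of these libraries.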

How the data were processed

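RNA of liver and subcutaneous fat was sequenced as non-strand-specific libraries. The authors mapped the reads with STAR (2.5 in the submitters' processing notes) and counted them per gene with HTSeq 0.6.1, and the deposited counts are whole numbers without normalization. The methods name the human genome, whereas the identifiers are mouse genes, of which 98.0% have the same position in GENCODE release 21 (GRCm38). The authors also deposited FPKM on gene length, and log2 fold changes and p-values of their own DESeq2 comparisons, which were not used.

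Each tissue was fitted alone with edgeR 4.0.16 (quasi-likelihood test, TMM, filterByExpr) in R 4.3.3, with Benjamini-Hochberg adjustment over all genes tested. All 7 members passed the filter in both tissues. The difference between tissues was an interaction over 12 libraries. Normalised CPM used the TMM factors within the tissue. Scripts were tested on simulated counts. Alternatives used DESeq2 1.42.0 and limma 3.58.1. Same-numbered null and hHKDC1 OE livers had correlated deviations from their group means (0.261, 0.216 and 0.154 over 9072 genes). Livers of unlike number had -0.219 to 0.056, but null fat 2 and hHKDC1 OE fat 1 reached 0.342. No label pairs the libraries, and whether they are paired was not tested.

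The members and lists were chosen with earlier results of these data known. Named were the 7 members, 22 pathway genes fixed by name and the 5 genes most correlated with the members in each tissue. Il6, Clcf1, marker genes at 0 counts and the Kupffer cell markers were named after their values were seen. Some genes that these rules cover are left out here.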

Additional observations from a re-analysis of the deposited data

Results flagged for a closer look

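Orm3 differed in opposite directions in the 2 tissues. Every hHKDC1 OE liver was above every null liver, at a log2 fold change of 2.39 (standard error 0.56), and every hHKDC1 OE fat library was below every null fat library, at -1.52 (standard error 0.39). The fat value minus the liver value was -3.84 (standard error 0.77) in the fit over 12 libraries. The gene had 9 to 189 counts in the livers and 31 to 113 in fat. Per hepatocyte marker count, the null and hHKDC1 OE fat libraries overlapped (0.61 to 1.37 and 0.50 to 0.91 per 1000). As Orm3 was chosen with these values known, no test of it is used as support.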

How the results depend on the processing

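The calls depended on the fit. In liver, 0 genes passed by edgeR, against 94 by DESeq2, 2 with library size alone, 327 with no filter on low counts, 17 with the replicate number as a block, and 3, 7 and 3 by limma on log2(FPKM + 1), log2(FPKM + 0.1) and log2(FPKM + 1) without a filter. In fat, 0 passed by edgeR, against 1446 by DESeq2, 803 with no filter, 876 with all 12 libraries in 1 fit, and 1 by limma with either pseudocount. For the difference between tissues, 0 passed, against 497 by DESeq2 and 479 with no filter. Leaving out each library gave 0 to 146 genes in liver, 0 to 3251 in fat and 0 to 1211 for the difference, and the highest of each came without hHKDC1 OE replicate 2 of liver, fat and fat. Among the listed genes, 0 passed, against 8 (DESeq2), 16 (no filter), 1 (block) and 0 to 12 (a library left out) in liver and 18, 14 and 0 to 26 in fat with DESeq2, no filter and a library left out. Of the 7 members, 0 passed, against 6 (DESeq2), 6 (no filter), 3 (block) and 0 to 5 (a library left out) in liver and 5, 3, 2 and 0 to 3 in fat. The causes were not tested.

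In fat the deviations of same-numbered null and hHKDC1 OE libraries had correlations of 0.075, -0.162 and 0.058, and the block gave 168 genes. The sign of every member's log2 fold change was the same under every alternative that gave a value for it, except Saa4 in liver (-0.33 to 0.07). A minimum of 10 counts in every library left out Orm3 in liver and Saa2 and Saa3 in fat, and the fit of all 12 libraries to 1 tissue was run for counts of genes only. Values ranged from 5.83 to 7.14 for Saa1 and 6.71 to 8.76 for Saa2 in liver. With a pseudocount of 1 on FPKM, Saa1, Saa2, Saa3 and Orm3 in fat were 3.86, 4.09, 2.09 and -1.10, and Saa3, Orm2 and Orm3 in liver 2.96, 4.83 and 1.79. Orm3 in liver and Saa2 and Saa3 in fat had under 10 counts in at least 1 null library, where the counting error is large.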
